A study of Mus musculus with 7 samples.

Results

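Cells carry receptors for nucleic acids, which can come from a virus, from damaged chromosomes or mitochondria, or from the cell's own transcripts. The 10 genes described here encode such sensors and their adaptors: Zbp1, Ifih1, Dhx58, Eif2ak2, Cgas, Sting1, Mavs, Tlr3, Tlr7 and Tlr9. The list is fixed and no value served as a cut, but it was chosen with earlier results of these data known. All 10 were among the 32285 genes counted and among the 17155 genes that passed the filter on low counts, and each had at least 10 counts in every library. RNA was sequenced from cultured utricles, the vestibular organs that sense linear acceleration and gravity, of postnatal day 2 wild-type (WT) C57BL/6J mice. All explants were damaged with the hair cell toxin gentamicin (2 mM for 24 h) and collected 5 days after injury. The 4 Gent+Fos OE libraries came from explants that were also given, for 48 h, an adeno-associated virus of the AAV-PHP.eB capsid carrying mouse Fos under the CMV promoter, which is active in many cell types, and the 3 Gent libraries came from explants labelled with gentamicin alone.

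A library holds the RNA of 12 utricles in 1 pool, and the replicate error given here is thus one between pools and not between mice. The labels name no virus for the Gent group. The study used a control AAV that carries EGFP in its explant experiments, a legend on genes higher with Fos in this RNA sequencing names a control AAV group, and names given to the Gent counts contain letters that can also stand for shRNA. It is not settled whether the Gent explants received a virus, so the direction of any difference in virus exposure between the groups is unknown here. The methods state 3 replicates per condition where the labels list 4 and 3, and all 7 libraries were used.

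The sensors differ in where they sit and what they bind. In the cytosol, MDA5 (Ifih1) and its relative LGP2 (Dhx58) bind double-stranded RNA, and MDA5 signals through MAVS on mitochondria. PKR (Eif2ak2) binds the same kind of RNA and phosphorylates the translation factor eIF2α. cGAS (Cgas) binds double-stranded DNA and makes a cyclic dinucleotide that activates STING (Sting1), whereas ZBP1 binds nucleic acids in the left-handed Z form and can start inflammatory cell death. Inside endosomes, TLR3 binds double-stranded RNA, TLR7 single-stranded RNA and TLR9 DNA with unmethylated CpG, which AAV genomes can carry. Several of these genes, Zbp1, Ifih1, Dhx58 and Eif2ak2 among them, are themselves induced by interferon, through factors that bind the interferon-stimulated response element (ISRE) in their promoters.

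Library totals ran from 27879889 to 34335214 counts. The Fos level followed the labels, at 38.2 ± 3.18 CPM (counts scaled to library size; SD, n = 3) in the Gent libraries against 154 ± 8.45 CPM (SD, n = 4) with the vector, and reads of the mouse gene and of the vector's mouse Fos cannot be told apart. Markers of hair cells summed to 554 to 814 CPM and those of supporting cells to 1940 to 2520 CPM over the 7 libraries. Gent replicate 2 stood apart. Its deviation from the mean of all libraries ran with gene length across genes (Spearman's rho -0.50). The rho was 0.15 and -0.22 in Gent replicates 1 and 3 and 0.12 to 0.32, always positive, in Gent+Fos OE. The length trend thus also differed in part between the groups. The chi-square per degree of freedom of Gent replicate 2 against the other Gent libraries was 147 and 103, where all other pairs within a group gave 17.8 to 48.9. Mitochondrial genes took 2.86% of its counts against 1.74% to 1.99% in the others, and its 10 most counted genes 6.01% against 4.74% to 5.31%. Values without this library are given for each member and for the other named genes whose log2 fold change it moves by over 1.5 times or whose call it decides.

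Promoter sequence was at hand for 6 of the 10 genes (RefSeq, GRCm38.p6, from 250 bases before to 50 after the start), and the stretches below are shown because interferon-inducible members might carry an ISRE and because the virus carried Fos, a subunit of AP-1. Of the motifs searched on both strands, those given here are the ISRE core (GAAA, any 2 bases, GAAA) and the AP-1 element TGANTCA, which occurred in 3.44% and 7.81% of all 32851 promoters. In capitals are the matches, each in a window of 30 bases on the strand of the gene.
Ifih1, ISRE core, chr2:62646206-62646235, minus strand: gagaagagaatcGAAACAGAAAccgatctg
Eif2ak2, ISRE core, chr17:78882535-78882564, minus strand: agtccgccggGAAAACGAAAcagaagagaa
Tlr9, AP-1 element, chr9:106222529-106222558, plus strand: caaatgatgtgTGACTCAttgtaccacctg

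Both ISRE matches lay after the start, beginning 33 bases into the Ifih1 transcript and 19 bases into that of Eif2ak2. The AP-1 match of Tlr9 began 58 bases before its start. Neither motif was found in the windows of Cgas, Mavs and Tlr3. The promoters of Zbp1, Dhx58, Sting1 and Tlr7 were not analysed here. A match is a description of the letters and not evidence of binding.

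Gent+Fos OE was compared with Gent to see whether the level of any sensor or adaptor differed with Fos overexpression. The transcripts of 2 of the 10 genes fell: those of Zbp1, 3.12-fold lower, and of Dhx58, 2.08-fold lower. Ifih1, Cgas and Sting1 had lower values in every Gent+Fos OE library than in any Gent library without passing the limits, and the values of Eif2ak2, Mavs, Tlr3, Tlr7 and Tlr9 overlapped between the groups. The limits were those of the study, a Benjamini-Hochberg adjusted p under 0.01 (here from edgeR's quasi-likelihood test) and a log2 fold change beyond 0.25 in either direction, and of all tested genes 0.28% passed them as lower and 0.134% as higher. No member was called higher. DESeq2 called 3 of the 10 lower and 0 higher, where 1.6% of all genes it tested were called lower and 1.31% higher. A negative log2 fold change means a lower level in Gent+Fos OE, and CPM values are TMM-normalized.

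Zbp1 (ENSMUSG00000027514) lies on the minus strand of mm10 at chr2:173206612-173218923. Its level was 36.3, 35.7 and 33.7 CPM in Gent replicates 1 to 3 and 12.9, 10.7, 11.1 and 10.4 CPM in Gent+Fos OE replicates 1 to 4. The groups were far apart, and the spread within each was small. Group means were 35.2 ± 1.37 CPM (SD, n = 3) in Gent and 11.3 ± 1.09 CPM (SD, n = 4) in Gent+Fos OE. The log2 fold change was -1.64 (standard error 0.13, 95% interval -1.93 to -1.35, edgeR adjusted p = 0.00056), and 0.443% of all tested genes had one as low or lower. Without Gent replicate 2 it was again -1.64.

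Dhx58 (ENSMUSG00000017830, chr11:100694884-100704271) encodes LGP2, which lacks the signalling domains of MDA5 and modulates it. It stood at 18.3, 21.1 and 21.4 CPM in the Gent libraries and at 9.96, 8.91, 8.99 and 11.2 CPM in the Gent+Fos OE libraries. Every Gent library was thus above every Gent+Fos OE library, and Gent replicate 2 lay among its group. Means were 20.2 ± 1.69 CPM (SD, n = 3) and 9.76 ± 1.07 CPM (SD, n = 4). The log2 fold change was -1.05 (standard error 0.15, 95% interval -1.38 to -0.73, edgeR adjusted p = 0.0065). Without Gent replicate 2 it was -1.03 (edgeR adjusted p = 0.00434). The call of Dhx58 was lost when any 1 of the Gent+Fos OE libraries or Gent replicate 3 was left out, with adjusted p from 0.0153 to 0.0434 and the log2 fold change between -1.13 and -1.01. Of its exonic bases, 4.31% are shared with another gene, and reads there were left out of the counts.

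Ifih1 (ENSMUSG00000026896, chr2:62595798-62646255), the sensor with which LGP2 works, was at 54.2, 41.6 and 47.5 CPM in Gent and 35.5, 34.8, 29.3 and 31.3 CPM in Gent+Fos OE. Gent replicate 2 was the lowest Gent library but still above all Gent+Fos OE libraries. The log2 fold change was -0.55 (95% interval -0.84 to -0.25) and did not pass the limit (edgeR adjusted p = 0.0703). DESeq2 called it at an adjusted p of 0.00917, and so did edgeR after a correction for the length trend of each library (log2 fold change -0.73, adjusted p = 0.00536). Without Gent replicate 2, the value was -0.64 (edgeR adjusted p = 0.0146). It was -0.45 without Gent replicate 1, and the edgeR adjusted p reached 0.213 without Gent+Fos OE replicate 3. Of 17 alternative fits, only the 2 named above called Ifih1.

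Cgas (ENSMUSG00000032344, chr9:78430526-78443237), the cytosolic DNA sensor, had the lowest mean level of the list, at 5.82, 4.07 and 6.64 CPM in Gent against 3.74, 3.64, 3.04 and 3.99 CPM in Gent+Fos OE. The groups were separated by a narrow gap, between Gent replicate 2 and Gent+Fos OE replicate 4. Its log2 fold change was -0.61 (95% interval -1.11 to -0.12, edgeR adjusted p = 0.148), and -0.80 without Gent replicate 2. Sting1 (ENSMUSG00000024349, chr18:35733679-35740554), which acts next after cGAS, was at 44.5, 61.7 and 45.4 CPM in Gent and 35.4, 39.4, 42.1 and 39.4 CPM in Gent+Fos OE. Here Gent replicate 2 was the highest of all libraries rather than the lowest of its group. The log2 fold change of Sting1 was -0.37 (95% interval -0.69 to -0.05, edgeR adjusted p = 0.164), and -0.21 without that library.

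For Zbp1, Dhx58, Ifih1, Cgas and Sting1, every Gent+Fos OE library lay below every Gent library, which gave each an unadjusted p of 0.0286 in a two-sided exact permutation test, the smallest that the 35 splits of 7 libraries allow. The same 5 of 10 genes had an unadjusted edgeR p under 0.05 in the lower direction and 0 of 10 in the higher. Of all tested genes, 12.2% had non-overlapping lower values and 13.4% an unadjusted p under 0.05 in that direction, against 11.3% and 11.1% in the higher one. The median log2 fold change of the 10 genes was -0.31, against 0 over all tested genes. This median depends on the libraries, as 8 of the 10 values were negative with all of them, 10 without Gent replicate 2 and 6 without Gent replicate 1.

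**Figure D1:**
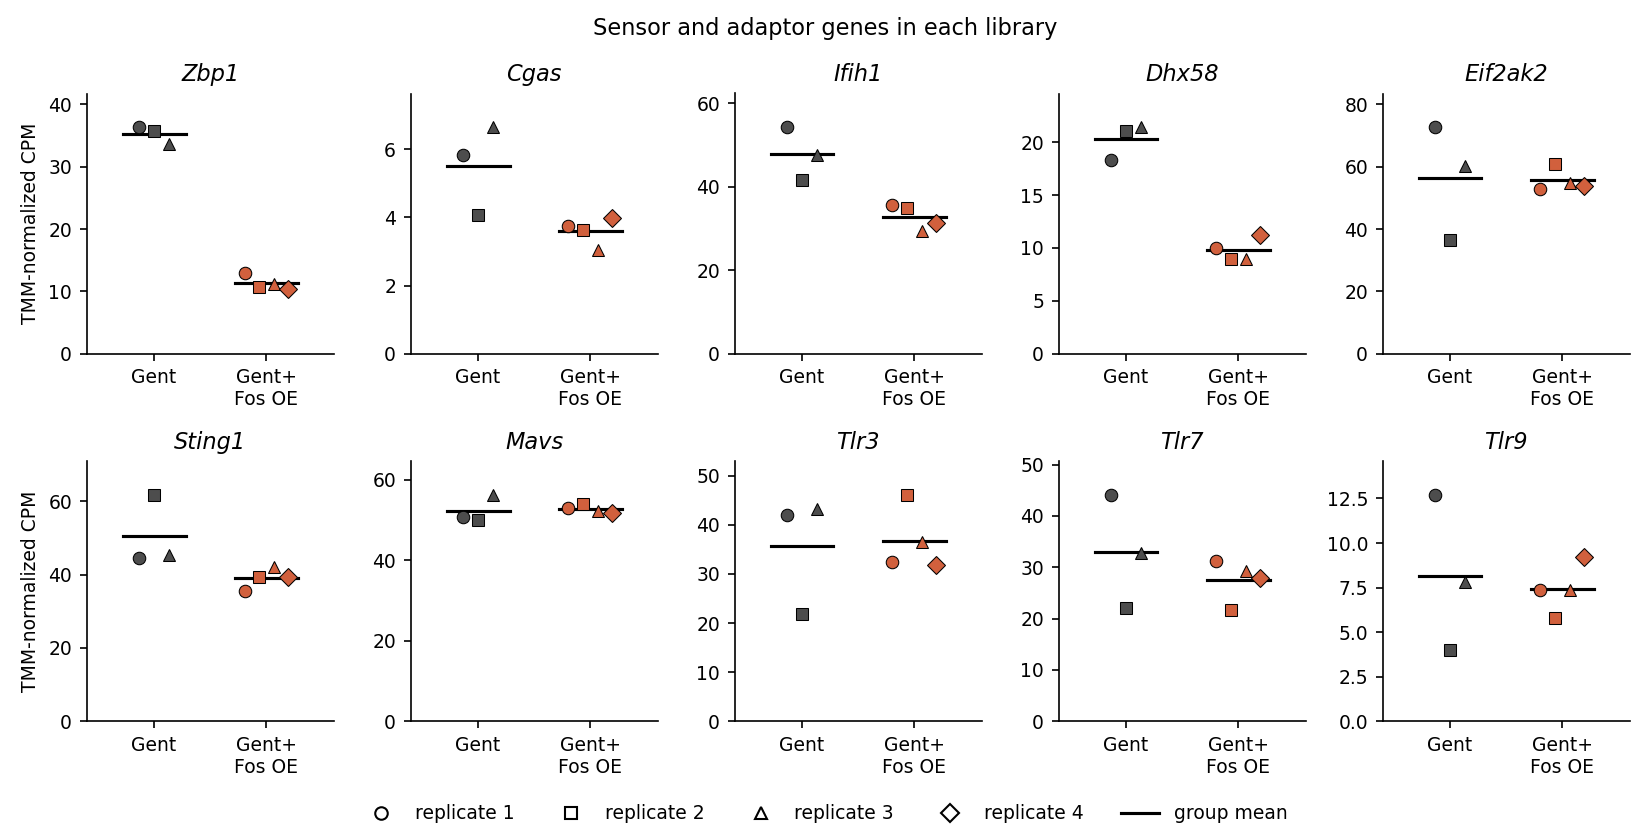
Level of each gene (TMM-normalized CPM, vertical axes from 0) in the 3 Gent and 4 Gent+Fos OE libraries, with 1 symbol per library and a bar at the group mean. Zbp1 and Dhx58 sit in separate bands, at 33.7 to 36.3 against 10.4 to 12.9 CPM and at 18.3 to 21.4 against 8.91 to 11.2 CPM, whereas Gent replicate 2 (square) lies lowest of all 7 libraries for Eif2ak2, Tlr3 and Tlr9.

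Mavs (ENSMUSG00000037523, chr2:131234063-131248025), the adaptor shared by MDA5 and RIG-I, differed little between libraries. It was at 50.6, 50 and 56.2 CPM in Gent and 52.9, 53.9, 52.2 and 51.8 CPM in Gent+Fos OE, values that overlapped within a few CPM. The log2 fold change was 0.01, with a 95% interval of -0.24 to 0.26 that leaves out changes of the size seen for Zbp1 and Dhx58 (edgeR adjusted p = 0.962). Eif2ak2 (ENSMUSG00000024079, chr17:78852564-78882573), the kinase PKR, was at 52.8, 61, 54.7 and 53.9 CPM in Gent+Fos OE and at 72.6, 36.6 and 60.3 CPM in Gent. The Gent libraries spanned the whole range of the 4 others, so the log2 fold change of -0.02 was loosely held (95% interval -0.46 to 0.42, edgeR adjusted p = 0.953, exact permutation p = 0.943). It was -0.26 without Gent replicate 2 and 0.20 without Gent replicate 1.

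In Gent, the coefficients of variation were highest for the endosomal receptors, at 33.5% for Tlr3, 33.3% for Tlr7 and 53.7% for Tlr9, with Eif2ak2 close behind at 32.4% and with the largest SD of the list in CPM (18.3). Tlr3 (ENSMUSG00000031639, chr8:45395665-45411080) was at 42.1, 21.9 and 43.2 CPM in Gent and 32.5, 46.1, 36.6 and 31.9 CPM in Gent+Fos OE. Its log2 fold change was 0.04 (95% interval -0.47 to 0.55, edgeR adjusted p = 0.929), and -0.22 without Gent replicate 2. For Tlr7 (ENSMUSG00000044583, chrX:167304929-167330558), the Gent libraries read 44.1, 22.1 and 32.7 CPM and the Gent+Fos OE libraries 31.3, 21.7, 29.3 and 27.9 CPM. This gave a log2 fold change of -0.26 (95% interval -0.74 to 0.22, edgeR adjusted p = 0.47), which was -0.48 without Gent replicate 2 and 0.01 without Gent replicate 1. Tlr9 (ENSMUSG00000045322, chr9:106222598-106226883), the receptor for CpG DNA, was at 12.7, 3.97 and 7.83 CPM in Gent and 7.39, 5.81, 7.34 and 9.19 CPM in Gent+Fos OE. A single Gent library was at the top and another at the bottom of all 7. The log2 fold change was -0.14 (95% interval -0.86 to 0.58, edgeR adjusted p = 0.816), -0.47 without Gent replicate 2 and 0.33 without Gent replicate 1.

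Of the exonic bases of Tlr3, 7.32% are shared with another gene. The intervals of Tlr7 and Tlr9 hold values as low as that of Ifih1, so a difference of that size was not detectable for them with these libraries. The difference between any of the members' fold changes and another's was not tested.

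**Figure D2:**
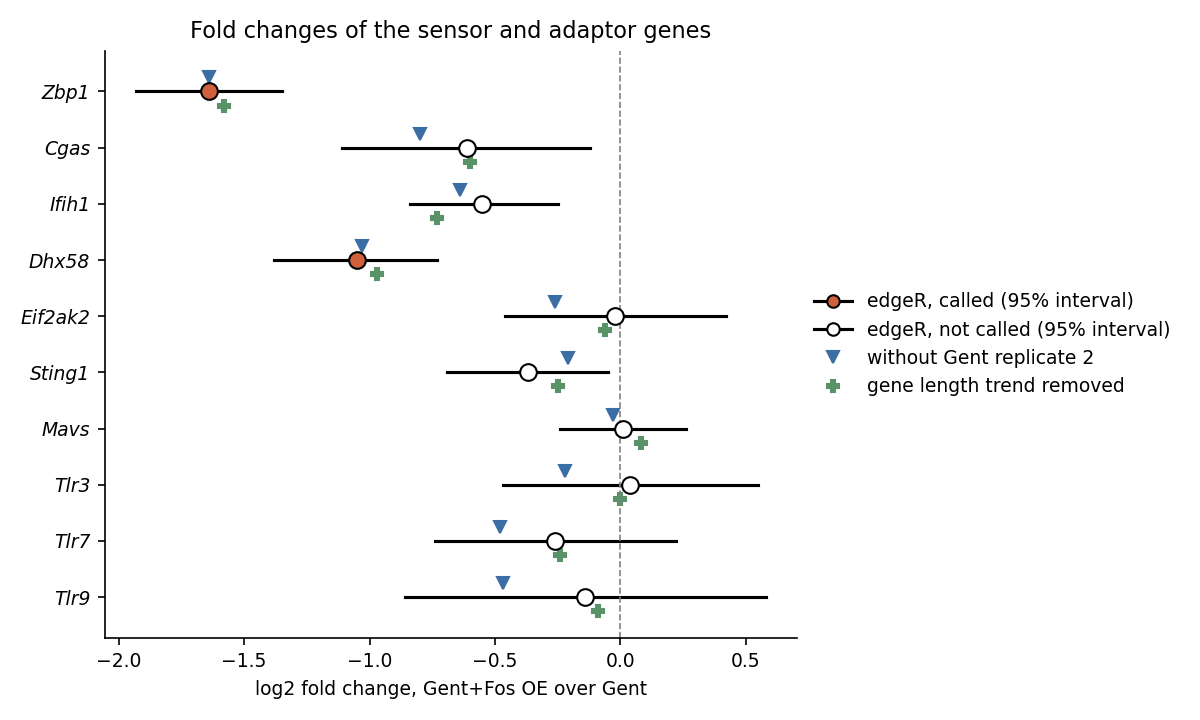
Log2 fold change (Gent+Fos OE over Gent, horizontal axis) of the 10 genes from edgeR with 95% intervals, filled where called, with the value without Gent replicate 2 (triangle) and after removal of the gene length trend (cross). The Zbp1 interval (-1.93 to -1.35) meets only that of Dhx58 (-1.38 to -0.73), and Eif2ak2, Tlr3, Tlr7 and Tlr9 move by over 0.2 without that library.

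Levels between genes were compared per kilobase of exon. In Gent, Sting1 (18.4 CPM per kb, range 16.2 to 22.5) and Mavs (15.6, range 15 to 16.8) were the most abundant of the list, followed by Eif2ak2 (11, range 7.15 to 14.2) and Zbp1 (9.98, range 9.54 to 10.3). Then came Tlr7 at 8.07, Tlr3 at 6.87, Dhx58 at 6.19 and Ifih1 at 5.85 CPM per kb, with Tlr9 (2.35) and Cgas (1.33) at the bottom. Among neighbours in this order, only the ranges of Mavs and Eif2ak2 and those of Ifih1 and Tlr9 did not overlap. Between genes farther apart, Zbp1 lay wholly above Tlr3 (4.21 to 8.3), Dhx58 (5.59 to 6.53) and Ifih1 (5.1 to 6.64), and Eif2ak2 above Dhx58 and Ifih1. The order within the other pairs between Eif2ak2 and Ifih1, between Sting1 and Mavs and between Tlr9 and Cgas is not resolved in Gent.

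In Gent+Fos OE, the order began with Mavs (15.8 CPM per kb), Sting1 (14.3) and Eif2ak2 (10.9), whose ranges were separate. Tlr3 at 7.06 and Tlr7 at 6.75 CPM per kb overlapped each other, as did Ifih1 (4.01) with Zbp1 (3.2) and Zbp1 with Dhx58 (2.98). Tlr9 (2.14) and Cgas (0.873) were again last. Zbp1 went from rank 4 in Gent to rank 7 in Gent+Fos OE, where it stood beside the RIG-I-like receptors Ifih1 and Dhx58.

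**Figure D3:**
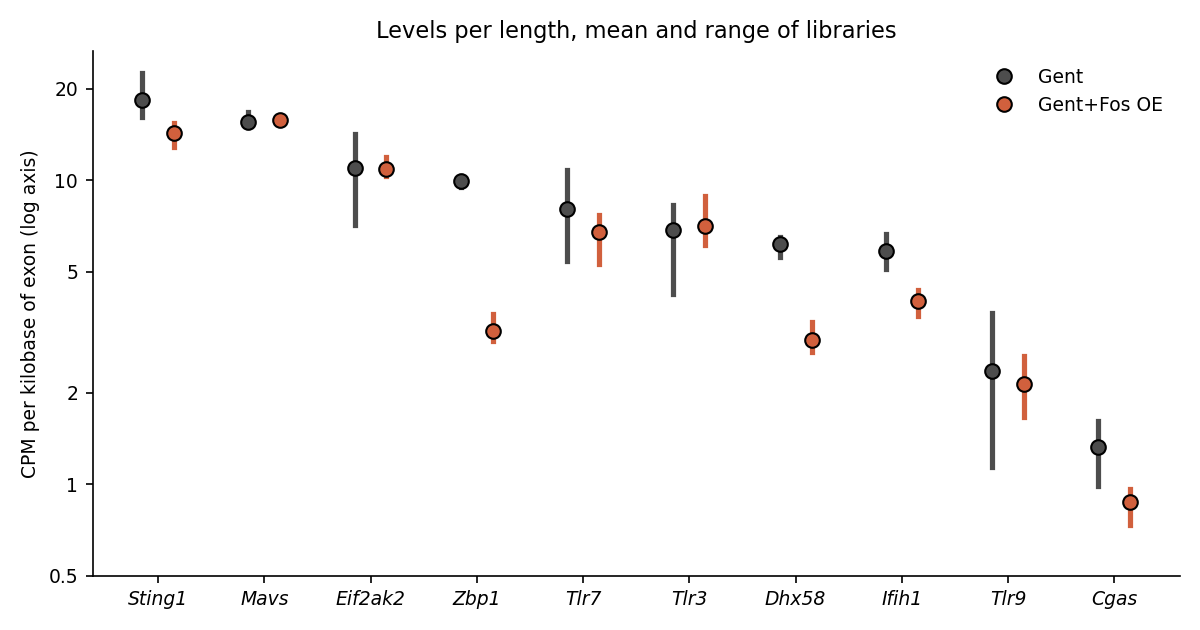
Level per length (CPM per kilobase of exon, log axis) of the 10 genes in Gent and Gent+Fos OE, as the mean of the libraries (point) and their range (line), in the order of the Gent means. The means run from 0.873 (Cgas, Gent+Fos OE) to 18.4 (Sting1, Gent), and the Zbp1 points, 9.98 and 3.2, are farthest apart.

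The members did not vary as 1 block over the 7 libraries. As a description over libraries that share the group difference, and with no test, the log2 CPM of Zbp1 ran with that of Dhx58 (Pearson r = 0.96) and Ifih1 (r = 0.91), and that of Ifih1 with Cgas (r = 0.89). Eif2ak2 ran with Tlr3 (r = 0.92) and Tlr9 (r = 0.83), and Tlr7 with Tlr9 (r = 0.88), and all 4 were low in Gent replicate 2. Tlr3 was less like Tlr7 (r = 0.40) and Tlr9 (r = 0.57). Between Zbp1, Dhx58, Ifih1 and Cgas on one side and Eif2ak2 and the endosomal receptors on the other, r ran from -0.24 (Dhx58 and Tlr3) to 0.57 (Cgas and Tlr7), a range that reaches the weaker pairs of the second set, so the sets are not sharply separate. The mean standardised log2 CPM of the 10 genes was -0.33, -0.31, -0.44 and -0.34 in the Gent+Fos OE libraries and 0.90, -0.34 and 0.86 in the Gent libraries, so by this mean Gent replicate 2 stood with the other group.

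The 10 genes outside the list whose log2 CPM was most like that mean (Pearson r from 0.95 to 0.98 over the 7 libraries, no test) were Herc6, Cd86, Trim30a, Msr1, Gbp6, Lpcat1, Hnrnpab, Ddx60, Colgalt1 and Oxct1. Herc6, Trim30a, Gbp6 and Ddx60 are known as interferon-inducible genes, Cd86 encodes a costimulatory molecule of antigen-presenting cells and Msr1 a macrophage scavenger receptor. This mean was high in 2 of the Gent libraries and low in the 5 others, so the choice of these genes largely fixed the sign of their fold changes and made calls likelier, and their values are a description only. Their log2 fold changes, all negative, ran from -0.96 (Trim30a, edgeR adjusted p = 0.0496) to -0.14 (Hnrnpab, edgeR adjusted p = 0.472). None was called by edgeR with all libraries, and DESeq2 called Trim30a (adjusted p = 0.00186). Without Gent replicate 2, the library that departed from its group in that mean, edgeR called 4 of the 10, at -1.22 for Trim30a, -0.76 for Msr1, -0.65 for Gbp6 and -1.10 for Ddx60, and Hnrnpab and Oxct1 were at -0.21 and -0.26. Trim30a and Gbp6 have close paralogs, and reads that mapped to several places were not counted.

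Promoters were at hand for 7 of these 10 genes, and 2 of the 7, Ddx60 and Trim30a, held an ISRE core. They are shown as the same element as in Ifih1 and Eif2ak2, with the match on the opposite strand in Trim30a, which has a pair of start sites in the table. The cores of Ddx60 began 53 and 19 bases before its start, and that of Trim30a 36 bases before one start and 3 bases after the other. Trim30a also held an AP-1 element, which began 44 bases after the first of these starts, and the others of the 7 held none.
Ddx60, ISRE core, chr8:61928024-61928053, plus strand: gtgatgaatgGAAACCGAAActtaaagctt
Ddx60, ISRE core, chr8:61928058-61928087, plus strand: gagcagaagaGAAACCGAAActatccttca
Trim30a, ISRE core, chr7:104465210-104465239, minus strand: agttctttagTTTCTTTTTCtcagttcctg
Trim30a, ISRE core, chr7:104446104-104446133, minus strand: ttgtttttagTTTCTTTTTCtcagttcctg

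Whole utricles hold macrophages, which are known to express most of these sensors, and in bulk RNA fewer cells of a type and less RNA per cell cannot be told apart. A list of 12 macrophage markers summed to 2450, 2590 and 2040 CPM in Gent and to 1560, 1130, 1350 and 1870 CPM in Gent+Fos OE, without overlap. Of the 12, 11 had a negative log2 fold change (median -0.69), 9 with an unadjusted p under 0.05, none was called by edgeR and 6 were called by DESeq2. Over all tested genes, 13.4% had such a p in the lower direction, and DESeq2 called 1.6% lower. None of the 12 was at 0 in any library. Their part in the results of the sensors was not tested.

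Beside that sum, Zbp1 was still lower. Its log2 ratio to the summed markers was -6.18 to -5.92 in Gent and -7.48 to -6.73 in Gent+Fos OE, a mean difference of -0.95 with no overlap. For Dhx58 the mean difference was -0.36, with ranges of -7.06 to -6.58 and -7.38 to -6.99 that overlapped. For the other 8 genes the mean difference was positive, at 0.10 for Cgas, 0.15 for Ifih1, 0.33 for Sting1 and 0.48 to 0.78 for Tlr7, Tlr9, Mavs, Eif2ak2 and Tlr3. Among these 8, only Mavs, whose own level overlapped between the groups, had ratios that did not, at -5.70 to -5.18 in Gent and -5.17 to -4.40 in Gent+Fos OE. Without Gent replicate 2 it was -1.01 for Zbp1 and -0.40 for Dhx58, it turned negative for Cgas (-0.17) and Ifih1 (-0.02), and it was 0.15 for Tlr7, 0.18 for Tlr9 and 0.37 to 0.60 for Eif2ak2, Tlr3, Sting1 and Mavs. These ratios set a gene that many cell types use against markers of 1, and they are given without a test.

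**Figure D4:**
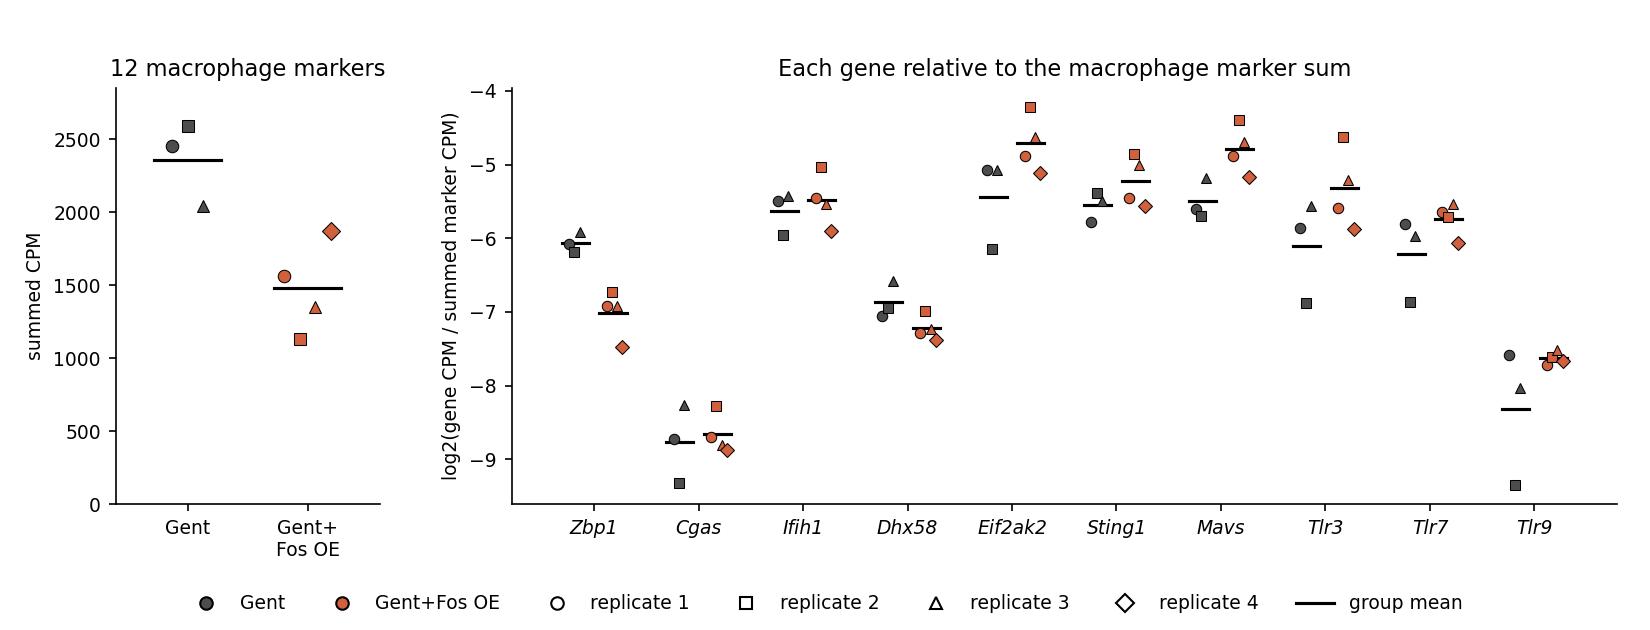
Summed level of 12 macrophage markers (CPM, left) and log2 ratio of each gene to that sum (right) in every library, with bars at group means. The sums run from 2040 to 2590 in Gent and 1130 to 1870 in Gent+Fos OE, and beside them Zbp1 remains apart (mean difference -0.95), as does Mavs by a narrow gap in the other direction (0.71), where the ranges of Dhx58 meet (-0.36).

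Other cells known for TLR7 and TLR9 were scarce in these libraries. B cell markers summed to 3.96 to 6.92 CPM in Gent and 1.5 to 2.92 CPM in Gent+Fos OE, almost all of it Cd79b, with Ms4a1 at 2 counts over all 7 libraries. Siglech, which defines plasmacytoid dendritic cells, had 8 counts over the 7 libraries. Bst2 of that list, an interferon-inducible gene that many cells express, was called lower (log2 fold change -1.32, edgeR adjusted p = 0.00847). The other tested genes of that list were not called and did not overlap between the groups. Spib was at 2.27 to 2.89 CPM in Gent and 0.918 to 1.71 CPM in Gent+Fos OE (log2 fold change -1, edgeR adjusted p = 0.107). The values of Ccr9, at 122 counts over the 7 libraries, and of Tcf4, which many cell types use, were higher in Gent+Fos OE, by 1.41 and 0.63 on the log2 scale, and by 0.94 and 0.40 without Gent replicate 2. The list summed to 341 to 417 CPM in Gent and 320 to 340 CPM in Gent+Fos OE. Neutrophil markers summed to 6.99 to 19 CPM in Gent and 3.45 to 5.91 CPM in Gent+Fos OE, and melanocyte markers to 63.8 to 106 and 29.6 to 35.8 CPM, also without overlap. Of the 4 melanocyte markers, edgeR called 1 lower (Dct, log2 fold change -1.40, adjusted p = 0.00404) and DESeq2 called 4, against 0.28% and 1.6% of all genes tested. T and NK cell markers were at 0.0961 to 0.376 and 0.367 to 1.14 CPM. The summed markers of hair cells, supporting cells, mesenchyme, endothelium, Schwann cells, neurons and erythroid cells overlapped between the groups. The part of these cells in the results was not tested either.

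The genes around the sensors were followed in 8 lists, which held 99 genes and 91 that were tested. Of these 91, 3 were called lower by edgeR (Irf7, Usp18 and Cd14), against 0.28% of all tested genes, and 0 higher, against 0.134%. DESeq2 called 13 lower, where it called 1.6% of all genes. Without Gent replicate 2, edgeR called 7 of them lower, against 0.531% of the 17525 genes then tested, and 1 without any of the Gent+Fos OE libraries or Gent replicate 3. In the lower direction 36 of the 91 had an unadjusted p under 0.05 and 37 did not overlap, where the shares over all tested genes were 13.4% and 12.2%. In the higher direction the counts were 4 and 3, and the shares 11.1% and 11.3%. Their median log2 fold change was -0.24, against 0 over all tested genes.

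Partners of the RNA sensors (13 genes, median log2 fold change -0.23) gave no call in either direction by edgeR or DESeq2. Rigi, which encodes the sensor RIG-I of short double-stranded RNA, was at 93.5 to 112 CPM in Gent and 73.7 to 83.4 CPM in Gent+Fos OE (log2 fold change -0.40, edgeR adjusted p = 0.104). The helicase gene Ddx60 had -0.80 (edgeR adjusted p = 0.123) and Rnf135, which encodes the ubiquitin ligase Riplet that activates RIG-I, -0.53 (edgeR adjusted p = 0.133). Tlr8, the neighbour of Tlr7 on the X chromosome, was at 5.89 to 24.6 CPM in Gent and 12.7 to 15.4 CPM in Gent+Fos OE. Without Gent replicate 2, edgeR called Ddx60 (-1.10, adjusted p = 0.00756), Rnf135 was at -0.32 and Tlr8, at -0.07 with all libraries, was at -0.45.

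Partners of the DNA sensors (11 genes, median -0.37) gave no call by edgeR, and DESeq2 called 2, Ifi204 and Mndal. Ifi204 of the interferon-inducible p200 family was at 23.8 ± 2 CPM (SD, n = 3) in Gent and 11.5 ± 2.04 CPM (SD, n = 4) in Gent+Fos OE (log2 fold change -1.05), just outside the limit with an edgeR adjusted p of 0.0124. Mndal of the same family had -0.84 (edgeR adjusted p = 0.0508), and both belong to a cluster of similar genes, so their counts are uncertain. Pqbp1, a co-sensor for cGAS, had -0.46 (edgeR adjusted p = 0.0925). In the other direction, Trim56 had 0.43 and Enpp1, which degrades the cyclic dinucleotide made by cGAS, 0.27, both with overlapping groups. With Gent replicate 2 left out the median was -0.17, edgeR called Ifi204 (-1.05, adjusted p = 0.00891), and Trim56 and Enpp1 were at 0.17 and 0.10.

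The endosomal receptors depend on a chaperone, on proteases that cut them and on MyD88 or TRIF. In this list (17 genes, median -0.13), Cd14, a co-receptor for lipopolysaccharide that also aids the uptake of nucleic acids, fell from 104 ± 25.3 CPM (SD, n = 3) in Gent to 46.6 ± 5.59 CPM (SD, n = 4) in Gent+Fos OE (log2 fold change -1.15, edgeR adjusted p = 0.00847). The call of Cd14 held in 9 of 17 alternative fits and was lost without any 1 of the Gent+Fos OE libraries or Gent replicate 3 (adjusted p from 0.018 to 0.0472). Myd88 had -0.63 (edgeR adjusted p = 0.0362), Tasl, the adaptor that links these receptors to IRF5, -1.51 (edgeR adjusted p = 0.0433) and Unc93b1, the chaperone, -0.73 (edgeR adjusted p = 0.0862). In the other direction, Traf6 and Irak1, which act after MyD88, were higher in every Gent+Fos OE library than in any Gent library without being called, at 0.44 (edgeR adjusted p = 0.191, and 0.22 without Gent replicate 2) and 0.23 (edgeR adjusted p = 0.232). Ticam1, which encodes TRIF, the adaptor of TLR3, had -0.20 with overlapping groups. Of the proteases, Ctsb was at 3200 to 3300 CPM in Gent and 2600 to 3090 CPM in Gent+Fos OE, without overlap (log2 fold change -0.21, edgeR adjusted p = 0.279), and Ctsl and Lgmn had -0.01 and -0.09, with overlap. Leaving out Gent replicate 2 put Ticam1, Ctsl and Lgmn at 0.02, 0.01 and -0.22 and the median of the list at -0.20. DESeq2 called 4 genes of this list lower, Cd14, Myd88, Tasl and Slc15a3.

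Among the kinases and the IRF and STAT factors (17 genes, median -0.49), Tbk1, the kinase on which MAVS and STING converge, had a log2 fold change of 0 (edgeR adjusted p = 0.986) and Irf3, its substrate, -0.33 (edgeR adjusted p = 0.245). Irf7, the interferon-inducible factor that amplifies the response, fell from 70.8 ± 7.54 CPM (SD, n = 3) to 21.7 ± 2.43 CPM (SD, n = 4), with a log2 fold change at -1.70 (standard error 0.14, edgeR adjusted p = 0.00056). Usp18, a feedback inhibitor of interferon signalling that interferon itself induces, fell from 30.7 ± 9.66 to 9.94 ± 1.68 CPM, by 1.63 on the log2 scale (edgeR adjusted p = 0.00481). The call of Irf7 held in 16 of 17 alternative fits, with each library left out among them. That of Usp18 held in 10 and was lost without the same libraries as Cd14 (adjusted p from 0.0101 to 0.0247). Irf9 had -0.59 (edgeR adjusted p = 0.0588) and Stat2 -0.62 (edgeR adjusted p = 0.0656), both without overlap between the groups, and DESeq2 called both. Irf3 and Tbk1 were both at -0.09 without Gent replicate 2.

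Transcripts of interferons themselves were hardly counted. Ifna2, Ifna4, Ifnl2, Ifnl3 and Ifng had no count in any library. For Ifng this allows, at 3 counts, a level of up to 0.0866 to 0.107 CPM per library. The other 4 belong to families of near-identical genes, and since reads that mapped to several places were not counted, their 0 sets no such limit. Ifnb1 had 12 counts over all 7 libraries. Of the 6 receptor genes tested (median -0.35), none was called by edgeR or DESeq2. Ifngr2 and Ifnar2 each had -0.38 (Ifnar2 -0.25 without Gent replicate 2), and Ifnlr1 had 0.54 (edgeR adjusted p = 0.104), with every Gent+Fos OE library above every Gent library.

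Nucleases and RNA editing enzymes remove or mask the ligands of the sensors (13 genes, 11 tested, median -0.49). The lysosomal exonuclease gene Pld4 had a log2 fold change of -1.02 (edgeR adjusted p = 0.0489), and Rnaseh2a, of the enzyme that cuts RNA paired with DNA, -0.52 (edgeR adjusted p = 0.098). Rnaset2a had -0.72 (edgeR adjusted p = 0.0995) but has a near-identical copy, which makes its count uncertain. Adar, the editing enzyme whose loss activates MDA5 and ZBP1, was at 47.6 to 76.2 CPM in Gent and 52.8 to 58.6 CPM in Gent+Fos OE (log2 fold change -0.15, edgeR adjusted p = 0.574). None was called by edgeR with all libraries, and DESeq2 called Pld4 (adjusted p = 0.00129). The median was -0.31, Rnaset2a was at -0.46 and Adar at -0.31 without Gent replicate 2.

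ZBP1 acts through RIPK3 and MLKL in necroptosis. Of the 7 genes in that list (median -0.24), Mlkl was at 10.5 ± 1.78 CPM (SD, n = 3) in Gent and 5 ± 0.541 CPM (SD, n = 4) in Gent+Fos OE (log2 fold change -1.08, edgeR adjusted p = 0.0178), and Ripk3 had -0.63 (edgeR adjusted p = 0.0995). Ripk1 and Casp8 had -0.09 and -0.03 with overlapping groups, and Cflar, an inhibitor of caspase-8, had 0.47 (edgeR adjusted p = 0.186). In the list around PKR (9 genes, median -0.02), Ddit3 had -0.71 (edgeR adjusted p = 0.108), Eif2s1, the gene of the eIF2α substrate, -0.34 (edgeR adjusted p = 0.143) and Atf4 -0.29 (edgeR adjusted p = 0.206). The kinases that phosphorylate the same substrate had -0.17 (Eif2ak1), 0.33 (Eif2ak3) and 0.01 (Eif2ak4). In these 2 lists edgeR called no gene with all libraries, and DESeq2 called Mlkl (adjusted p = 1.93e-05). On the 6 libraries other than Gent replicate 2, edgeR called Mlkl (-1.21, adjusted p = 0.00347), the medians were -0.11 and -0.08, and the log2 fold change was -0.18 for Ripk1, 0.04 for Casp8, 0.24 for Cflar, -0.43 for Ddit3, -0.15 for Atf4, 0.10 for Eif2ak3 and -0.08 for Eif2ak4.

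**Figure D5:**
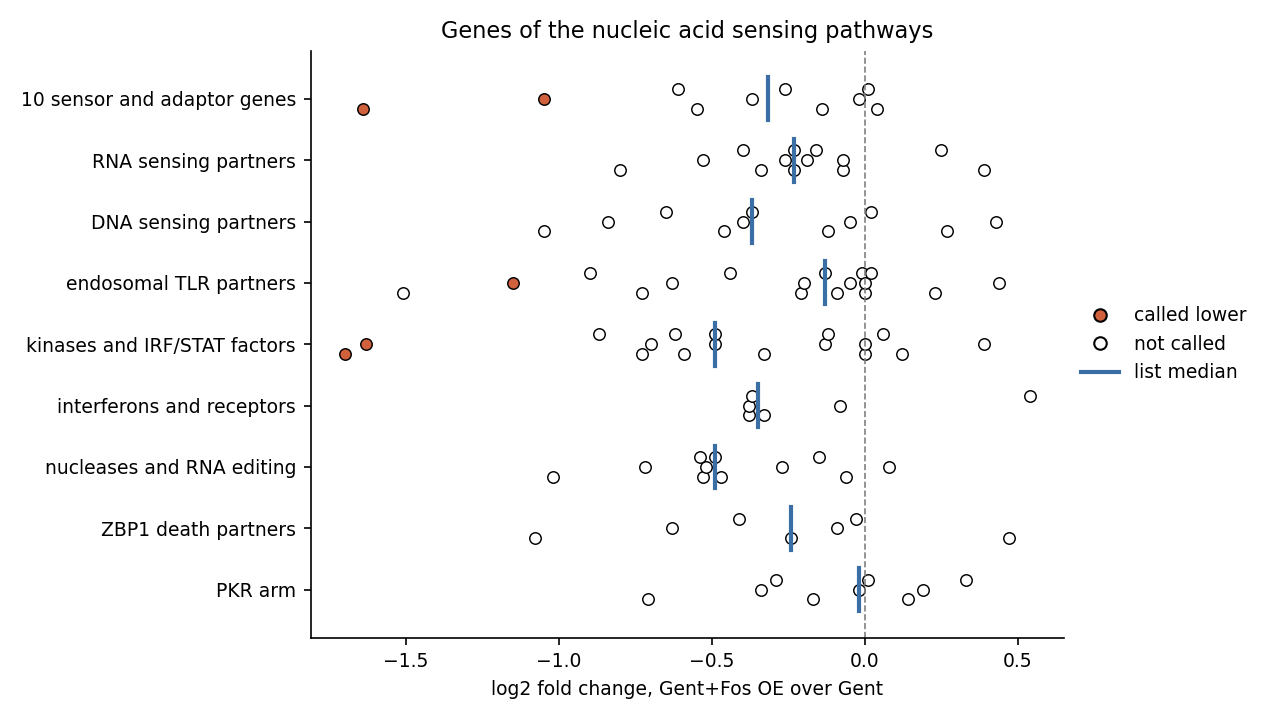
Log2 fold change (Gent+Fos OE over Gent, horizontal axis) of the 10 sensor and adaptor genes and of the tested genes in 8 lists around them, 1 point per gene, filled where called, with a line at each list's median. The medians run from -0.49 to -0.02, and the called genes are Zbp1 (-1.64), Dhx58 (-1.05), Cd14 (-1.15), Irf7 (-1.70) and Usp18 (-1.63).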

How the data were processed

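RNA sequencing of pooled mouse utricle explants gave 4 Gent+Fos OE and 3 Gent libraries, grouped by their labels. The deposited values are whole-number read counts per gene, without normalization. Per the file headers, the authors counted with featureCounts 2.0.6 against an mm10 annotation, with both reads of a pair counted separately, no strand setting, and reads that hit several genes or places left out. The submitters' notes name Trim Galore 0.6.10, HISAT2 2.2.1 and DESeq2 1.34.0, whereas the methods name mm39 and other versions. Coordinates are those of the files (mm10). Symbols came from GENCODE vM39 by Ensembl ID for 31674 of 32285 genes, and all 180 list symbols matched.

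The main test was that of edgeR 4.0.16 in R 4.3.3 (filterByExpr, TMM, quasi-likelihood F-test, no covariate, Benjamini-Hochberg adjustment over 17155 genes). A gene needed an adjusted p under 0.01 and a log2 fold change beyond 0.25 either way, as in the study's methods. Exact permutation tests compared mean log2 CPM over all 35 label assignments. Replicates differed by more than sampling of reads, so their spread sets the precision, and the library totals of 27879889 to 34335214 counts limit only the rarest genes. Alternatives were DESeq2 1.42.0 (total of at least 10 counts), limma-voom 3.58.1, RLE and upper quartile scaling, no filter, 10 counts in every library, a replicate block, a gene length correction (loess span 0.3), both together, halved counts, and each library left out. Scripts were tested on simulated data. Figures were drawn with matplotlib 3.10.9.

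Named genes were the 10 members, Fos, from each pathway list the called genes or, with fewer than 3, the 3 with the smallest adjusted p, and the 10 genes most like the members' mean (predicted gene models left out). Other genes were named after their values were seen, and results of some listed genes are not reported here. The members, lists and rule were chosen with earlier results of these data known.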

Additional observations from a re-analysis of the deposited data

Results flagged for a closer look

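Of the 43 named genes, each examined over the 4 Gent+Fos OE libraries, 1 had a library set apart by Dixon's test at the 95% level, which chance gives for about 1 gene in 20. Fos was at 167 CPM in Gent+Fos OE replicate 3 and at 149 to 151 CPM in the other 3. No sensor or adaptor gene was set apart in this way. The 3 Gent libraries are too few for the same test.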

How the results depend on the processing

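Over 17 alternative fits, Zbp1 kept its direction in all, between -1.71 and -1.54 on the log2 scale, and its call in 16, and Dhx58 its direction in all (-1.13 to -0.97) and its call in 10. A replicate block gave no call among all tested genes, with -1.61 for Zbp1 (edgeR adjusted p = 0.031) and -1.12 for Dhx58 (edgeR adjusted p = 0.0658). Same-numbered libraries deviated with correlations of 0.05, -0.03 and 0.02, which shows no pairing by number. Why the calls were lost with the block was not tested. With the block and the gene length correction together, 1 sensor gene was called (Zbp1), 1 pathway gene and 31 genes lower in all, and Dhx58 had an adjusted p of 0.0207. The counts of called genes depended on the fit. For sensor genes called lower (2), DESeq2 and the length correction gave 3, the block 0, and leaving out 1 library 1 to 2. For pathway genes called lower (3), DESeq2 gave 13, no filter 7, the length correction 6, the block 0, and leaving out 1 library 1 to 7. Over all genes, 48 called lower became 336 with DESeq2, 141 with no filter, 82 with the length correction, 0 with the block and 3 to 93 with 1 library left out, and 23 called higher became 275, 63, 34, 0 and 2 to 45. The lowest counts over all genes with a library left out came without Gent+Fos OE replicate 3 and the highest without Gent replicate 2. The length correction brought Sting1 (from -0.37 to -0.25), Pqbp1 (from -0.46 to -0.27) and Cflar (from 0.47 to 0.17) nearer 0. Ifih1 (from -0.55 to -0.73) and Rigi (from -0.40 to -0.54) were among the genes it took further from 0. Signs near 0 turned. Eif2ak2 was at 0.03 with limma-voom and 0.04 with the block, Mavs at -0.02 with upper quartile scaling, Tlr3 at 0 with the length correction and Tlr9 at 0 with limma-voom. With 1 library left out, Eif2ak2 ran from -0.26 to 0.20, Mavs from -0.03 to 0.07, Tlr3 from -0.22 to 0.20, Tlr7 from -0.48 to 0.01 and Tlr9 from -0.47 to 0.33. The lowest value of each came without Gent replicate 2, and the highest without Gent replicate 1 for Eif2ak2, Tlr7 and Tlr9 and without Gent replicate 3 for Mavs and Tlr3. The cause of these changes was not tested. The median of all log2 fold changes moved by at most 0.05 under any fit.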
